A study of Homo sapiens with 2 samples.

Results

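The genes described here are the 37 genes of the human mitochondrial genome, chosen as every entry whose chromosome is given as MT, out of 60623 entries in the count tables. They comprise 13 protein-coding genes, 2 rRNA genes and 22 tRNA genes. By the annotated strand, 28 genes lie on the plus strand (heavy-strand transcripts) and 9 on the minus strand (light-strand transcripts, namely MT-ND6 and 8 tRNA genes). The 2 libraries, 1 for each group and both labelled with the same batch, came from wild-type HepG2 cells, an established line from a human liver carcinoma. Cells of both groups received 1 mM FFA for 24 h, a BSA-conjugated mixture of oleic and palmitic acid that loads the cells with lipid, and the FFA + 9-cis-RA group also received 10 μM 9-cis-RA, a retinoid agonist of the RXR nuclear receptors, RXRα among them, that also engages RAR receptors. The comparison addresses how transcripts differ with 9-cis-RA in lipid-loaded cells, and it has no untreated library in these data. Each group being a single library, no replicate check was possible, and neither p-values nor standard errors are given. The 95% intervals cover counting error only and compare these 2 libraries, not the conditions.

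Mitochondrial DNA is a small circular genome present in many copies per cell, which encodes core subunits of the respiratory chain and of ATP synthase together with the rRNAs and tRNAs that translate them inside the organelle. Each strand is transcribed as a long precursor, and tRNAs that lie between the other genes are cut out to release the mRNAs and rRNAs. Most of the mRNAs receive a short poly(A) tail, which in several of them completes the stop codon, while the MT-ND6 mRNA is known to lack one. Hepatocytes are rich in mitochondria, where they oxidise fatty acids.

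The genome is so compact that neighbouring genes share bases, which bears on how fragments were counted. Fragments overlapping more than 1 gene on a strand were left out by the authors' counting. Sequences are from GENCODE release 29 transcripts of GRCh38, written 5′ to 3′ on the coding strand. The first 2 sequences show the largest overlaps of protein-coding genes on the same strand. MT-ATP8 and MT-ATP6 share 46 bases at MT:8527-8572, with the start codon of MT-ATP6 and the stop codon of MT-ATP8 in capitals. MT-ND4L and MT-ND4 share 7 bases at MT:10760-10766, shown in capitals within MT:10737-10786.
MT-ATP8/MT-ATP6: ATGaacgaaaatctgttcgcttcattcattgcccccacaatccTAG
MT-ND4L/MT-ND4: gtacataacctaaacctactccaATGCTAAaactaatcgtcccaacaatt

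The ends of 4 protein-coding genes show how the DNA stops short of, or carries, a whole stop codon. Capitals mark the bases past the last whole codon in MT-ND1 (MT:4242-4262) and MT-ND4 (MT:12117-12137), and the last codon in MT-CO1 (MT:7425-7445) and in MT-ND6 (MT:14149-14169, minus strand).
MT-ND1 end: cagcattccccctcaaaccTA
MT-ND4 end: tcattaccgggttttcctctT
MT-CO1 end: cccgtatacataaaatctAGA
MT-ND6 end: gagattgctcgggggaatAGG
Of the 13 protein-coding genes, 6 ended without a whole stop codon (MT-ND1, MT-ND2, MT-CO3, MT-ND3, MT-ND4 and MT-CYB) and 7 carried a whole last codon.

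Among the tRNA genes, some of those with the most fragments and some with almost none are shown, because the contrast between them is described further on. MT-TK and MT-TR, with 0 counts in both libraries, are not shown. MT-TL1 (MT:3230-3304) follows the 16S rRNA gene. MT-TT (MT:15888-15953) and MT-TP (MT:15956-16023, minus strand) lie next to each other on opposite strands. MT-TH (MT:12138-12206), MT-TS2 (MT:12207-12265) and MT-TL2 (MT:12266-12336) abut between MT-ND4 and MT-ND5.
MT-TL1: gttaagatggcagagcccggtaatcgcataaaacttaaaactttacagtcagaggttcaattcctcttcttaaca
MT-TT: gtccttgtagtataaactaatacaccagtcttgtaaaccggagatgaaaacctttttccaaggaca
MT-TP: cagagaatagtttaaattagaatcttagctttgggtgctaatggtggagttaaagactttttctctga
MT-TH: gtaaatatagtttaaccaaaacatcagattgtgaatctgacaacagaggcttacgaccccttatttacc
MT-TS2: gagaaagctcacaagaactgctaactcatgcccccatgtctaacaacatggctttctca
MT-TL2: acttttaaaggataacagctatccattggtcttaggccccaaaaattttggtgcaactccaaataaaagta

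Over all entries the count totals were 60821539 (FFA) and 57669670 (FFA + 9-cis-RA). The log2 fold change (log2FC) was FFA + 9-cis-RA over FFA after division by size factors and addition of a pseudocount of 1, and it was taken for the 20431 entries with at least 10 counts over both libraries, whose median was -0.020 with quartiles at -0.26 and 0.18. All 7 hepatocyte markers checked were detected. Of 6 markers of other cell types, only the leukocyte gene PTPRC had 0 counts in both libraries, while KRT19 (bile duct epithelium) had 2301 and 1663 counts, ACTA2 (smooth muscle and stellate cells) 1186 and 773, PECAM1 52 and 29, CD68 5 and 15 and COL1A1 1 and 2. The libraries came from 1 established cell line, so these counts do not by themselves show that other cell types were present. The part of these genes in the mitochondrial values was not tested. The retinoid response gene CYP26A1, a retinoic acid hydroxylase, had 4 counts under FFA alone and 709 in the library labelled FFA + 9-cis-RA.

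The 37 mitochondrial genes held 6345968 counts in the FFA library, or 10.4% of all counts, and 5742236 in the FFA + 9-cis-RA library, or 9.96%. The exact 95% binomial intervals of these shares were 10.43% to 10.44% and 9.95% to 9.96%. Protein-coding genes made up most of the mitochondrial counts, with 83.1% with FFA alone and 81.0% with 9-cis-RA added. The rRNA genes made up 16.9% and 18.9%, so their portion was larger in the FFA + 9-cis-RA library. The tRNA genes made up 0.072% and 0.076%. Both libraries were made from poly(A)-selected RNA, so the rRNA, tRNA and MT-ND6 counts are not the levels of these RNAs in the cell. A difference in the number of mitochondria per cell cannot be told apart from one in RNA per mitochondrion.

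By strand, the 28 heavy-strand genes held 6305247 counts with FFA alone and 5703993 with 9-cis-RA added, or 99.4% and 99.3% of the mitochondrial counts. The 9 light-strand genes held 40721 and 38243 counts. Nearly all of the light-strand counts belonged to MT-ND6. Of the 20 entries with the most counts in each library, 10 were mitochondrial in both, and MT-CO1 held the highest count of all entries in both libraries.

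Levels were compared between genes as FPKM, computed from the counts with the gene's length and the library's counted total. The protein-coding genes spanned 12.3 fold with FFA alone and 11.96 fold with 9-cis-RA added, with MT-CO1 highest and MT-ND6 lowest in both. MT-ND6, whose mRNA lacks a poly(A) tail, sets the lower end, and how far poly(A) selection lowered its value was not tested. Among the heavy-strand protein-coding genes the lowest was MT-ND3, at 2105 and 1993. The order of the levels hardly differed between libraries, with a Pearson correlation of the log10 levels of 0.998 and a Spearman correlation of 0.99 across the 13 genes, which share the 2 libraries and are not independent.

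**Figure D1:**
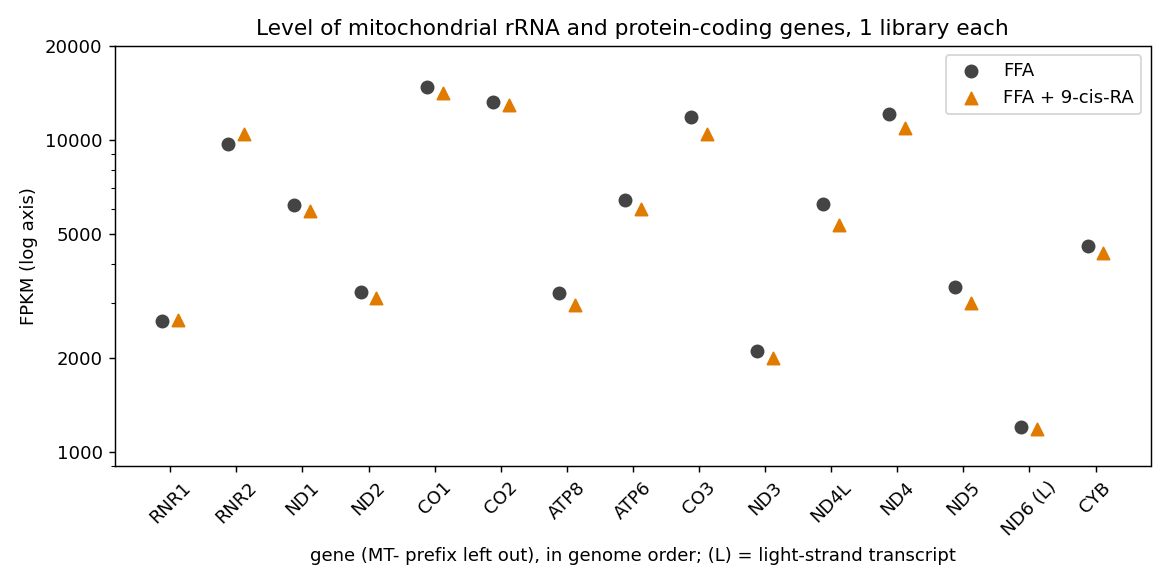
Level of the 2 rRNA and 13 protein-coding genes in FPKM on a log axis, in genome order, with circles for the FFA library and triangles for the FFA + 9-cis-RA library (1 library each). The protein-coding genes run from 1201 for MT-ND6 to 14820 for MT-CO1 in the FFA library, and the triangle lies below the circle for all 13 of them and above it for both rRNA genes, although size factor scaling puts MT-RNR1 lower with 9-cis-RA at -0.037 on the log2 scale.

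MT-CO1 (MT:5904-7445), MT-CO2 (MT:7586-8269) and MT-CO3 (MT:9207-9990) encode the catalytic core of complex IV (cytochrome c oxidase), the enzyme that passes electrons to oxygen. MT-CO1 had a level of 14820 with FFA alone and 14150 with 9-cis-RA added. MT-CO2 had levels of 13174 and 12896. MT-CO3 had levels of 11862 and 10412, the widest gap of the 3. In counts, MT-CO1 had 1389875 and 1258338, a log2FC of -0.12 (95% interval -0.12 to -0.11). MT-CO2 had 548073 and 508689 counts, a log2FC of -0.080 (-0.085 to -0.074). MT-CO3 had 565634 and 470778 counts, a log2FC of -0.24 (-0.24 to -0.23). The 3 subunits of 1 enzyme thus differed in the size of their values. The log2FC of MT-CO2 exceeded that of MT-CO3 by 0.16 (0.15 to 0.17), and that of MT-CO1 exceeded it by 0.12 (0.11 to 0.13), by exact odds ratio intervals for the counts of these libraries.

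The 7 ND genes encode the membrane core of complex I (NADH dehydrogenase), the entry point of electrons from NADH. MT-ND4 (MT:10760-12137) had the highest level among them, at 12109 with FFA alone and 10878 with 9-cis-RA added, and a log2FC of -0.20 (-0.21 to -0.20). MT-ND4L (MT:10470-10766), which lies directly before it and is made from the same mRNA, had levels of 6232 and 5321. Its log2FC of -0.28 (-0.29 to -0.26) was the lowest of the 13 protein-coding genes. The level of MT-ND4 over that of MT-ND4L was 1.94 with FFA alone and 2.04 with 9-cis-RA added, although both lie on 1 mRNA. On the bases that no other gene covers the ratio was 1.91 and 2.01. How far the loss of fragments that touch both genes sets this ratio was not tested.

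MT-ND5 (MT:12337-14148), the gene that follows MT-ND4 on the heavy strand after 3 tRNA genes, had 370450 counts with FFA alone and 313926 with 9-cis-RA added. Its log2FC was -0.21 (-0.22 to -0.20). MT-ND6 (MT:14149-14673) is encoded directly beyond MT-ND5 on the other strand and is the only protein-coding light-strand gene. It had 38351 and 35834 counts, a log2FC of -0.070 (-0.091 to -0.049), the closest to 0 of the 13. The log2FC of MT-ND6 exceeded that of MT-ND5 by 0.14 (0.12 to 0.16).

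MT-ND1 (MT:3307-4262) and MT-ND2 (MT:4470-5511), the first protein-coding genes on the heavy strand, had nearly the same log2FC. MT-ND1 had 359260 and 326850 counts, a log2FC of -0.11 (-0.12 to -0.10). MT-ND2 had 205974 and 187172 counts, a log2FC of -0.11 (-0.12 to -0.10). Their intervals overlapped, but their levels in the FFA library differed, at 6179 for MT-ND1 and 3250 for MT-ND2. MT-ND3 (MT:10059-10404) had 44288 and 39765 counts, with a log2FC of -0.13 (-0.15 to -0.11) and levels of 2105 and 1993, the lowest among the heavy-strand protein-coding genes.

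MT-ATP8 (MT:8366-8572) and MT-ATP6 (MT:8527-9207) encode membrane subunits of ATP synthase and are translated from 1 shared mRNA. MT-ATP6, which forms part of the proton channel, had 264762 counts with FFA alone and 235843 with 9-cis-RA added, a log2FC of -0.14 (-0.15 to -0.13). MT-ATP8 had 40632 and 35301 counts, a log2FC of -0.18 (-0.20 to -0.15). The log2FC values of these genes differed by 0.036 (0.014 to 0.058). The level of MT-ATP6 was 1.98 times that of MT-ATP8 in the FFA library and 2.03 times in the other. Counted over unshared bases only, these ratios were 1.65 and 1.70. MT-CYB (MT:14747-15887), which encodes cytochrome b of complex III, had 316553 and 285518 counts, a log2FC of -0.12 (-0.13 to -0.11).

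All 13 protein-coding genes were lower in the FFA + 9-cis-RA library, with a median log2FC of -0.13 and a range from -0.28 to -0.070. Their summed counts were 5271314 and 4653615, a log2FC of -0.15 (-0.15 to -0.15). The counting interval lay below 0 for 13 of 13, against 25.7% of all entries compared, and the value itself was below 0 for 52.3% of all entries. Since the interval narrows with depth, entries of like depth are the closer background. Of the 138 nuclear entries with at least as many counts as the lowest of the 13, 65.2% had an interval below 0 and 28.99% above it, and their median was -0.083 with quartiles at -0.16 and 0.036. The minimum count for these entries was chosen after the values were seen. None of the 13 passed an absolute log2FC of 1, which 8.28% of all entries passed.

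**Figure D2:**
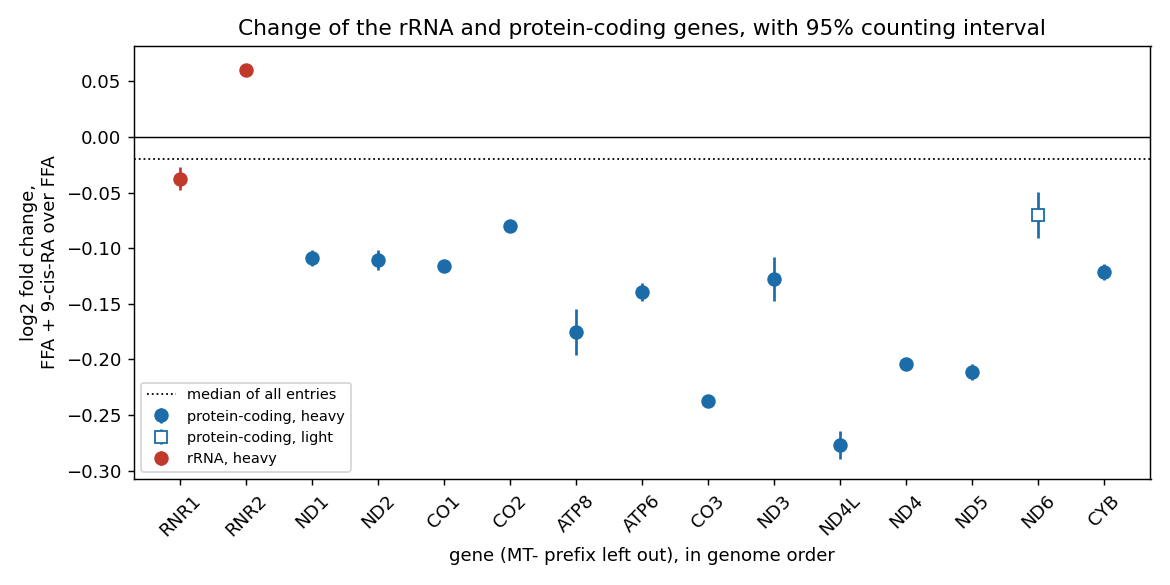
Log2FC (FFA + 9-cis-RA over FFA) of the rRNA genes in red and protein-coding genes in blue, in genome order, with 95% counting intervals, filled circles for heavy-strand and an open square for light-strand transcripts, and the median of all compared entries as a dotted line at -0.020. MT-RNR2 is the only gene above 0 under size factor scaling (MT-RNR1 is at 0.012 under total counts), and the lowest values are those of MT-ND4L at -0.28 and MT-CO3 at -0.24.

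Position along the heavy strand went with the size of the difference. The 6 heavy-strand protein-coding genes from MT-ND1 to MT-ATP6 had a median log2FC of -0.11 (range -0.18 to -0.080), and the 6 from MT-CO3 to MT-CYB had a median of -0.21 (range -0.28 to -0.12). The ranges overlapped, with MT-ND3 and MT-CYB of the second block among the values of the first. On summed counts the second block was lower than the first by a log2 difference of -0.093 (-0.097 to -0.089), with the boundary between the blocks chosen after the values were seen. Across the 12 genes the log2FC and the start position had a Pearson correlation of -0.43 and a Spearman correlation of -0.64. With the rRNA genes added the values were -0.69 and -0.77 (n = 14). The rRNA genes lie before all 12 and are of another class, so class and position cannot be told apart in the latter values. Genes along 1 precursor in the same libraries are not independent, so these correlations only describe the order.

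Stop codons, base composition and length were looked at in the same way. The 6 genes without a whole stop codon had a median log2FC of -0.12 (range -0.24 to -0.11) and the 7 with one had -0.14 (range -0.28 to -0.070). Median levels in the FFA library were 5370 for the former and 6232 for the latter, with overlapping ranges. Across the 15 rRNA and protein-coding genes, the Pearson correlation of the log2FC was 0.00061 with GC content, 0.31 with log10 length and -0.12 with log10 level.

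The rRNA genes encode the structural RNAs of the mitochondrial ribosome. In log2FC, MT-RNR2 stood apart from the mRNAs, while MT-RNR1 lay close to the highest of them, MT-ND6 at -0.070. MT-RNR1 (MT:648-1601, 12S rRNA of the small subunit) had 151842 counts with FFA alone and 145149 with 9-cis-RA added, a log2FC of -0.037 (-0.048 to -0.027). MT-RNR2 (MT:1671-3229, 16S rRNA of the large subunit) had 918264 and 939134 counts, a log2FC of 0.060 (0.056 to 0.064), which put it with the 22.5% of all entries whose interval lay above 0. The direction for MT-RNR1 depended on scaling, since its log2FC was 0.012 when scaled by total counts and 0.0041 by nuclear counts. MT-RNR2 kept its sign under all 4 scalings, as did each of the 13 protein-coding genes. Per kilobase, MT-RNR2 was 3.70 times as high as MT-RNR1 in the FFA library and 3.96 times in the other, a difference of 0.097 (0.086 to 0.11) on the log2 scale of counts. Summed over both genes, with MT-RNR2 holding most of the counts, the rRNA log2FC was 0.047 (0.043 to 0.050). It exceeded that of the protein-coding genes by 0.20 (0.19 to 0.20), a contrast within the libraries that needs no scaling.

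Since the libraries were poly(A)-selected, nuclear RNAs of kinds known to lack a tail were set beside the rRNA, tRNA and MT-ND6 counts. Of 19 such entries, mostly replication-dependent histone genes with the signal recognition particle RNA RN7SL1, 13 could be compared. Their summed counts were 1720 with FFA alone and 1016 with 9-cis-RA added, a log2FC of -0.73 (-0.85 to -0.62). RN7SL1 held most of these, with 1197 and 630 counts, so the sum mainly shows 1 RNA. Annotated lengths among the histone entries reached 2411 bases (H3C8). Whether all their fragments came from RNAs without a tail was not tested. The value was below 0 for 12 of the 13, against 52.3% of all entries, and the interval for 4, near the 25.7% of all entries, with none above, while MT-RNR2 was higher in the FFA + 9-cis-RA library. Their part in the rRNA, tRNA and MT-ND6 values was not tested.

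The tRNA genes, which supply the adaptors for mitochondrial translation, held few fragments, with 4548 counts over the 22 genes with FFA alone and 4338 with 9-cis-RA added. Mature tRNAs are short and carry no poly(A) tail. The highest tRNA level, that of MT-TP (tRNA for proline), was 251 FPKM in the FFA library, below the 1201 of MT-ND6. MT-TK, MT-TR, MT-TS2 and MT-TL2 had 0 counts in both libraries, which allows up to 3 counts, or 0.0493 and 0.0520 CPM (FFA and FFA + 9-cis-RA). MT-TH had 5 and 2 counts. These 5 genes fell under the minimum of 10, and 17 tRNA genes were compared.

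The counts spread widely and in nearly the same order in both libraries, with a Pearson correlation of 0.99 for log10(count + 1) over the 22 genes. MT-TP had 1038 counts with FFA alone and 1140 with 9-cis-RA added. MT-TT (threonine) had 937 and 825, and MT-TL1 (leucine) had 638 and 585. MT-TQ (glutamine) had 615 and 562. After these came MT-TE (glutamate) with 398 and 409, MT-TW (tryptophan) with 283 and 249 and MT-TS1 (serine) with 176 and 162. The other genes compared had fewer than 100 counts in each library. MT-TF (phenylalanine) had 93 and 62, MT-TI (isoleucine) 77 and 53, MT-TA (alanine) 75 and 94, and MT-TD (aspartate) 66 and 64. MT-TV (valine) had 42 and 52, MT-TY (tyrosine) 33 and 25, MT-TM (methionine) 20 and 23, MT-TG (glycine) 17 and 14 and MT-TC (cysteine) 5 and 7.

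**Figure D3:**
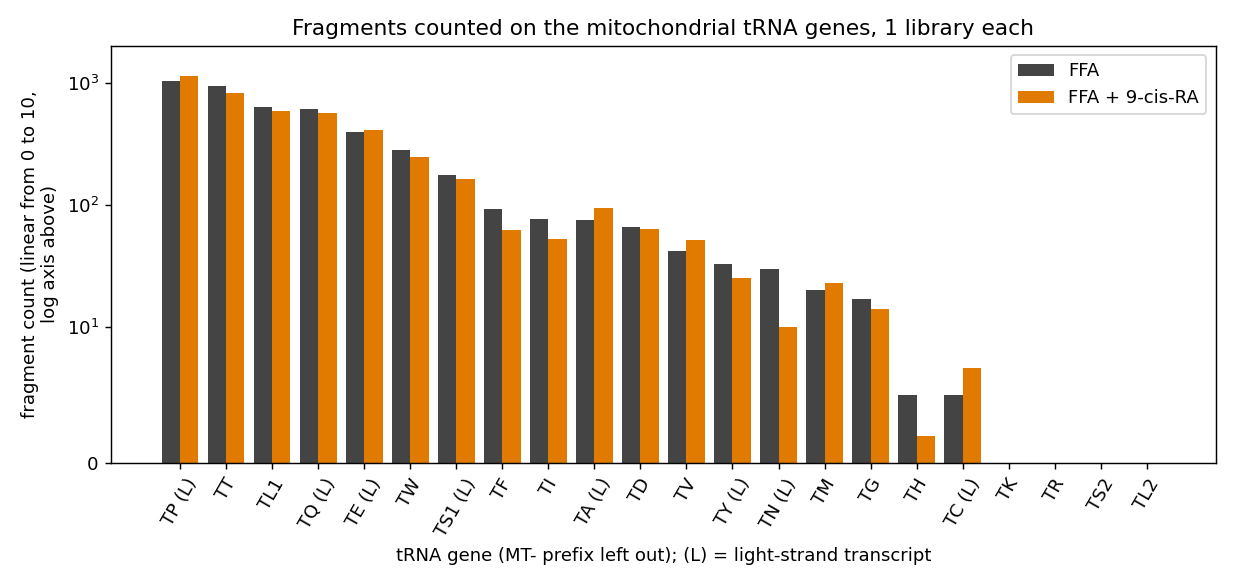
Fragment counts of the 22 mitochondrial tRNA genes in the FFA library (dark bars) and the FFA + 9-cis-RA library (orange bars), 1 library each, ordered by the FFA count, on an axis that is linear from 0 to 10 and logarithmic above; (L) marks light-strand transcripts. Counts run from 1038 and 1140 for MT-TP to 0 in both libraries for MT-TK, MT-TR, MT-TS2 and MT-TL2.

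The number of fragments was set beside how much unannotated sequence flanked the tRNA gene on its own strand. The 6 tRNA genes that abut other genes on both sides (MT-TV, MT-TG, MT-TR, MT-TH, MT-TS2 and MT-TL2) together held 64 counts with FFA alone and 68 with 9-cis-RA added, with a range of 0 to 42 with FFA alone, and 4 of them were under 10. The 9 with more than 100 bases of free flank, or no gene beyond them on 1 side in linear coordinates, held 3648 and 3528. Their median was 283 and 249, with a range of 33 to 1038 with FFA alone. The 6 with 20 to 100 free bases had a median of 25 and 16.5 counts and a range of 0 to 77 with FFA alone. The ranges overlapped, and single genes went against the order of the medians, such as MT-TL1, with 638 and 585 counts and almost no free flank, and MT-TY, with 33 and 25 counts in the class of the widest flank, fewer than MT-TV with no flank. A fragment longer than a tRNA gene that abuts its neighbours must overlap them and was then not counted. A count of 0 for such a gene therefore does not speak of the tRNA's level. MT-TK, with 25 free bases before it and 1 after it, also had 0 counts in both libraries. How far this loss of fragments sets the tRNA counts was not tested. These flank classes were set after the counts were seen.

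Between libraries, the interval lay below 0 for 3 of the 17 tRNA genes compared, above 0 for 1 and across 0 for 13, where 25.7% of all entries lay below and 22.5% above. MT-TN (asparagine) had 30 and 10 counts, a log2FC of -1.47 (-2.75 to -0.49), and was the only one of the 32 mitochondrial genes compared to pass 1, against 8.28% of all entries. MT-TF had a log2FC of -0.55 (-1.04 to -0.078) and MT-TT of -0.16 (-0.29 to -0.019). MT-TP was the one with an interval above 0, at 0.16 (0.040 to 0.29). Over all 22 genes the summed log2FC was -0.041 (-0.10 to 0.020), not distinguishable from 0 at this depth, and it exceeded that of the protein-coding genes by 0.11 (0.051 to 0.17).

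**Figure D4:**
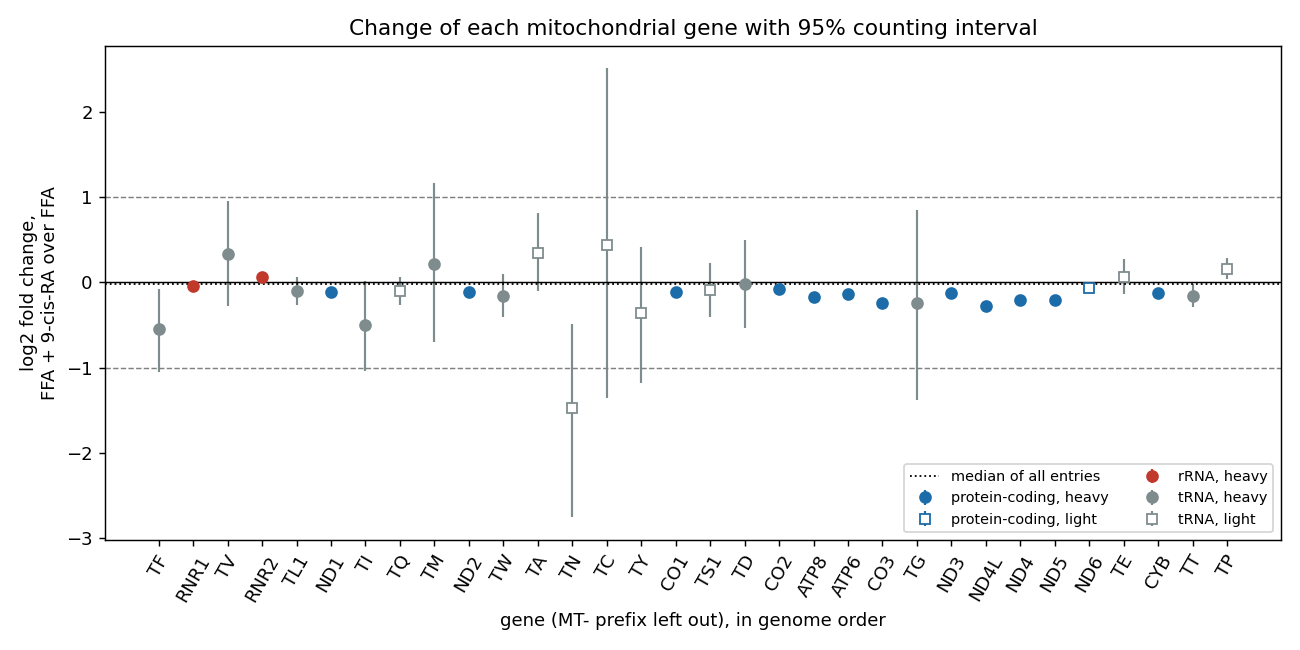
Log2FC (FFA + 9-cis-RA over FFA) of the 32 mitochondrial genes compared, in genome order, with 95% counting intervals; colour marks the class, open squares the light-strand transcripts, dashed lines a value of 1 either way and the dotted line the median of all entries. MT-TN at -1.47 is the only gene past a dashed line, and the tRNA intervals are far wider than those of the rRNA and protein-coding genes.

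By strand, the summed log2FC was -0.12 (-0.12 to -0.12) for heavy-strand and -0.063 (-0.083 to -0.043) for light-strand transcripts. The light-strand value exceeded the heavy-strand value by 0.054 (0.034 to 0.074). The difference was 0.082 (0.062 to 0.10) among protein-coding genes, where the light strand is MT-ND6 alone. Among tRNA genes, the 14 heavy-strand genes had 2178 counts with FFA alone and 1929 with 9-cis-RA added, a log2FC of -0.15 (-0.24 to -0.058). The 8 light-strand genes had 2370 and 2409, a log2FC of 0.051 (-0.031 to 0.13). The tRNA strands differed by 0.20 (0.077 to 0.32), but without MT-TP, which holds a large part of the light-strand tRNA counts, the difference was 0.11 (-0.038 to 0.25) and its interval spanned 0.

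Each respiratory complex joins these mitochondrial subunits to subunits encoded in the nucleus. Mitochondrial subunits lay far above nuclear ones in level, and in both libraries every mitochondrial subunit exceeded the highest nuclear subunit of its complex. For complex I the median level was 3361 for the 7 mitochondrial and 14.5 for the 37 nuclear subunits in the FFA library. For complex IV the medians were 13174 for 3 mitochondrial and 40.4 for 11 nuclear subunits. For ATP synthase they were 4810 for 2 and 33.8 for 18, and for complex III 4561 for MT-CYB and 69.8 for 9 nuclear subunits. Nuclear lengths here are all exonic bases of a gene, which lowers nuclear levels. Fragments shared with other genes or mapping to several places were left out, which can lower nuclear and also mitochondrial levels. How far each of these sets the gap was not tested.

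The log2FC of the nuclear subunits is given beside that of the mitochondrial ones. The counts of their intervals are to be read against the 25.7% of all entries with an interval below 0 and the 22.5% above. These shares are over entries of all depths compared, and an interval narrows with depth, so they are only a loose background. Complex I had a summed log2FC of -0.18 for the mitochondrial and -0.053 for the nuclear subunits, of which 13 of 37 had an interval below 0 and 3 above. NDUFV3 (3118 and 2395 counts) was lowest at -0.35, and NDUFS4, an accessory subunit (856 and 1214 counts), highest at 0.53. Complex III had a summed value of -0.12 for both, but the median of its 9 nuclear subunits was -0.059, against -0.12 for MT-CYB. Of these subunits, 6 had an interval below 0 and none above, and UQCRH was lowest at -0.47. Complex IV had summed values of -0.13 for the mitochondrial and -0.086 for the nuclear subunits. Of the latter, 4 of 11 had an interval below 0 and 3 above, near the shares of all entries. They ran from COX6B1 at -0.69 to NDUFA4 at 0.26. For ATP synthase the summed values were -0.14 and -0.086, while the medians were in the other order, at -0.16 and -0.17. Its nuclear subunits had 13 of 18 intervals below 0 and 2 above, and ATP5ME, with 2413 and 928 counts and a value of -1.35, was the only subunit of any complex to pass 1.

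**Figure D5:**
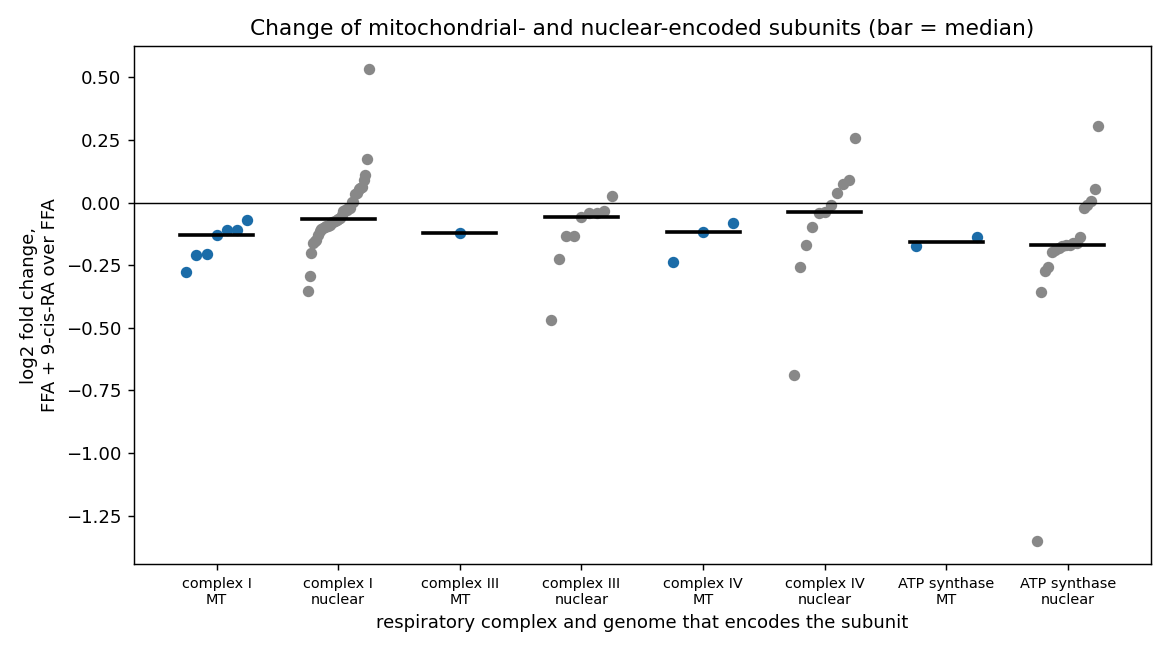
Log2FC (FFA + 9-cis-RA over FFA) of each mitochondrial (blue) and nuclear (grey) subunit of the 4 complexes, sorted within a column, with a bar at the median. All blue points lie between -0.28 and -0.070, while grey points run from -1.35 for ATP5ME to 0.53 for NDUFS4.

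Nuclear genes that act on the mitochondrial genome and its RNA had intervals both below and above 0, as did all entries, with shares of 25.7% and 22.5%. Of 14 genes for mitochondrial transcription and DNA replication, 5 had an interval below 0 and 3 above, with a median log2FC of -0.047. The lowest were MGME1, a mitochondrial exonuclease, at -0.57 (9421 and 6237 counts) and MTERF1, which binds a termination site in MT-TL1, at -0.29. The highest were MTERF3 at 0.27 and POLG, the mitochondrial DNA polymerase, at 0.30. Of 18 genes for RNA processing and stability, 6 were below 0 and 4 above, with a median of -0.036. SLIRP, which with LRPPRC stabilises mitochondrial mRNAs, was lowest at -0.996 (-1.14 to -0.86), with 1233 and 606 counts. LRPPRC itself was at -0.047 (-0.075 to -0.020), with 21493 and 20406 counts. PNPT1, the RNA-degrading phosphorylase, was at -0.15. PDE12, a phosphodiesterase that trims poly(A) tails, was highest at 0.31, and FASTKD1 was at 0.25.

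Of 7 genes that modify mitochondrial rRNA, 2 had an interval below 0 and none above, against 25.7% and 22.5% of all entries. TFB1M, which dimethylates the 12S rRNA, had 2965 and 1852 counts and a log2FC of -0.65 (-0.74 to -0.57). MRM1, a 16S rRNA methyltransferase, was at -0.32, and MRM3 at 0.054 and NSUN4 at 0.0047 had intervals across 0. Of 9 regulators of mitochondrial biogenesis, 8 could be compared, with 3 intervals below 0 and none above, against the same shares of all entries, and a median of -0.054. PPARGC1A, the coactivator PGC-1α, had 852 and 700 counts and was lowest at -0.26 (-0.40 to -0.11), followed by GABPB1 at -0.14, while YY1 at 0.0090 and NRF1 at 0.069 had intervals across 0.

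The nucleus also carries copies of mitochondrial sequence, whose reads can be hard to place. The 404 entries named as such copies, of which 13 could be compared, held in all 49417 counts with FFA alone and 40829 with 9-cis-RA added, or 0.081% and 0.071% of each library. MTATP6P1 held most of them, with 38230 and 32525 counts and a log2FC of -0.21 (-0.23 to -0.18). MTCO1P12 had 5944 and 3815, a log2FC of -0.61 (-0.67 to -0.55), and MTND2P28 had 4734 and 4051, at -0.20. The log2FC of MT-CO1 exceeded that of MTCO1P12 by 0.50 (0.44 to 0.56), and that of MT-ATP6 exceeded that of MTATP6P1 by 0.066 (0.043 to 0.089). Whether these fragments came from the nuclear copies or from the mitochondrial genes was not tested, so the counts of mitochondrial genes with near-identical copies are uncertain. Fragments mapping to several places were dropped, and how many such genes lost in this way is not known.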

How the data were processed

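Poly(A)-selected, stranded RNA-seq libraries of HepG2 cells were analysed, 1 per group. Unnormalized counts of fragments per gene were deposited, made by the authors with featureCounts version 2.0.1. Per the file headers, only pairs mapped at both ends and on the reverse strand were used, fragment length was checked, and multi-mapping or multi-gene reads were dropped. This lowers counts of overlapping and near-identical genes. The submitters' processing notes name GRCh38 and DESeq2; the aligner and annotation release are not given in the sources used here. All 37 mitochondrial positions matched GENCODE release 29.

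Size factors (1.01 and 0.990) came from DESeq2 version 1.42.0 and TMM factors from edgeR version 4.0.16, in R version 4.3.3. Log2 fold changes used a pseudocount of 1 and entries reaching 10 counts in the 2 libraries combined. Exact 95% intervals used Clopper-Pearson shares (scipy 1.17.1, Python 3.11.15, numpy 2.4.6, pandas 2.3.3), and contrasts between gene classes used Fisher's exact odds ratio intervals. Floors were 3 counts. They and the intervals cover counting error alone, since fragments carry no molecular identifiers. No model could be fitted with 1 library per group. Figures used matplotlib 3.10.9. The steps were tested on simulated data. Total counts, nuclear counts, other pseudocounts and other count minimums were tried as alternatives.

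All protein-coding and rRNA genes were named, as were tRNA genes with at least 10 counts. Of each other list, the 2 highest and 2 lowest members of 100 or more counts in all were eligible to be named; genes named outside this rule were chosen after their values were seen. The members and lists were chosen with earlier results of these data known.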

Additional observations from a re-analysis of the deposited data

How the results depend on the processing

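Scaling moved every summed value by a common shift, of 0.020 (TMM), 0.049 (total counts) and 0.041 (nuclear counts) on the log2 scale. The summed log2 fold change of the 13 protein-coding genes, -0.15, was -0.13, -0.10 and -0.11 under these scalings, and their median, -0.13, was -0.11, -0.079 and -0.086. That of the rRNA genes, 0.047, was 0.067, 0.096 and 0.088. The tRNA sum, -0.041, turned to 0.0086 under total counts and 0.00091 under nuclear counts, within its interval. The light-minus-heavy difference, 0.054, was 0.082 for protein-coding genes and 0.090 without the rRNA genes. Alternatives added after the data were seen gave 0.20 for tRNA genes and 0.11 for tRNA genes without MT-TP. With at least 50 counts, 0 members in place of 1 passed 1, because MT-TN then drops out. Without the 10 most abundant nuclear genes in the total, the mitochondrial share was 10.99% (FFA) and 10.5% (FFA + 9-cis-RA). Pseudocounts of 0.1 and 5 moved the class sums by less than their intervals and left the median at -0.13 and the members past 1 at 1, and the level range among protein-coding genes stayed at 12.3 and 11.96 on unshared bases. No paired analysis was possible because each group has 1 library. With 1 library per group, the spread between cultures is unknown, and the intervals say nothing of the treatment itself.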
